A study of Mus musculus with 15 samples.

Results

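Severe stress with morphine (SSM) was compared with mild stress with morphine (MSM) in the hippocampus of newborn mice, over 3 arrays of each group out of 15 arrays in the series. The arrays were chosen by the treatment in their labels. All pups were male C57BL/6 mice, treated from postnatal day 5 and sampled on postnatal day 9, with birth counted as postnatal day 1, and the tissue was the right hippocampus. Both groups received the opioid morphine, so the comparison varies the severity of the stress and not the drug. The other groups, of 3 arrays each, received saline with severe (SSS) or mild stress (MSS), or no treatment (CC). The sources used here give neither the content of the stress procedures, nor the dose of morphine, nor the dam of each pup; litters held no more than 7 pups. The p-values therefore measure only the spread between these arrays. The titles carry a number after the letters SS, of unstated meaning, which was 11 on all 3 MSM arrays and 8 or 9 on the SSM arrays. Whatever it marks and the severity of the stress cannot be told apart.

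The neonatal hippocampus is still adding granule neurons, wiring interneurons and beginning to myelinate. Stress acts on it through corticosterone and its receptors, and morphine acts through opioid receptors that restrain neurons. Gene expression was read as RNA, which includes transcripts that code for no protein. Among these, Malat1 and Meg3 stay in the nucleus, and the imprinted interval between Dlk1 and Dio3 makes a long maternal transcript that carries Meg3, Rian, snoRNAs and a large group of microRNAs. The microRNA genes of this interval were among the genes with the smallest p-values, so the mature RNAs of the 3 microRNA genes with the smallest p-values are shown here from RefSeq (GRCm38.p6), 5′ to 3′, with the seed (bases 2 to 8, which pair with target mRNAs) in capitals.
mmu-miR-380-5p: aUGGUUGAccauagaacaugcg
mmu-miR-380-3p: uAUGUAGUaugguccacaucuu
mmu-miR-679-5p: gGACUGUGaggugacucuuggu
mmu-miR-679-3p: aGCAAGGUccuccucacaguag
mmu-miR-127-5p: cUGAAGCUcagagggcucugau
mmu-miR-127-3p: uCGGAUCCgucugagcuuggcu
The 6 sequences have 6 different seeds. All lie on the plus strand of chromosome 12, miR-127-5p at chr12:109592854-109592875, miR-380-5p at chr12:109711806-109711827 and miR-679-5p at chr12:109715587-109715608. The array reads RNA over probe sets named for these genes, and does not separate a mature microRNA from its precursor.

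Values are log2 intensities, with 1 probe set for each of 19938 genes. A difference is the mean of SSM minus the mean of MSM with the standard error (SE) of limma, 3 arrays per group, so that 1 unit is a doubling. The median log2 level was 6.39 on SSM 3 and 6.22 to 6.27 on the 14 remaining arrays, and on SSM 3 the median gene stood 0.158 above its median elsewhere. The defining markers of hippocampus were present on all arrays, yet their mean was 7.93 on MSM 3 and 8.53 on SSM 1 against 8.97 to 9.11 on the other 4 arrays of the comparison. On MSM 3 the thalamus marker Tcf7l2 stood at 9.85 against 6.20 to 6.97 on those 5 other arrays. On SSM 1 the striatum markers Penk and Drd1 stood at 11.40 and 9.72. The mean of a list of striatum genes was 8.69 on SSM 1 and 7.20 on MSM 2. It was 6.44 to 6.79 on the other 4 arrays of the comparison. Values without SSM 3, MSM 3 or SSM 1 are therefore given below where they bear on a result. Their part in the other results was not tested. The fits without MSM 3 and SSM 1 keep MSM 2.

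No gene passed an adjusted p of 0.05 (percent called 0), and the smallest adjusted p by limma was 0.0764. It was shared by Kbtbd7 and Pknox1, with the higher mean in SSM, and Mir380, with the lower mean. At an unadjusted limma p under 0.05, 2408 genes (12.1% of those tested) had the higher mean in SSM and 450 (2.26%) the lower mean. With quantile normalization these counts were 1796 and 849, and with each array centred on its median 1268 and 982. Without SSM 3 they were 1123 and 869, so the excess of genes on the higher side was much smaller without that array. The 3 SSM arrays all lay above the 3 MSM arrays for 2303 genes (11.6%) and all below for 506 genes (2.54%). Of all genes 14673 (73.6%) had the higher mean in SSM. The median difference over all genes was 0.06, and 0.01 without SSM 3. Leaving out SSS 1, which enters through the common estimate of spread alone, brought 8 genes past the threshold. These were Kbtbd7 and Pknox1 on the higher side and Mir380, Mir679, Meg3, Malat1, Rsrp1 and Leng8 on the lower, with adjusted p-values from 0.0334 to 0.0459 by limma.

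Most noncoding RNAs of the Dlk1 to Dio3 interval had lower means in SSM than in MSM. Of 48 genes measured from Dlk1 to Dio3, 41 had the lower mean in SSM, 23 of them at an unadjusted p under 0.05 by limma, where 2.26% of all genes stood, and none had the higher mean at that threshold. Their median difference was −0.24 against 0.06 over all genes, and −0.30 without SSM 3. Because the RNAs are cut from a shared transcript, they are not independent of one another.

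Mir380 read 5.41, 5.44 and 5.58 on the MSM arrays and 4.39, 4.65 and 4.65 on the SSM arrays, a difference of −0.92 ± 0.14 (SE; adjusted p 0.0764 by limma). The groups did not overlap, and the CC mean of 5.05 lay between them. Mir679 read 8.35, 8.07 and 8.52 on MSM against 7.16, 7.57 and 7.43 on SSM, a difference of −0.93 ± 0.19 (adjusted p 0.156 by limma). Mir127, whose gene lies antisense to the protein-coding Rtl1, read 5.84, 5.74 and 5.96 on MSM against 5.29, 5.48 and 5.63 on SSM, a difference of −0.38 ± 0.09. In all 3, which were picked by p, the lowest MSM array stood above the highest SSM array, as in 2.54% of all genes. Mir380 and Mir127 read low, with means of 5.08 and 5.63 over the 15 arrays, below the lowest array median of 6.22. Meg3, the first long RNA of the maternal transcript, read 11.96, 12.04 and 12.14 on MSM and 11.40, 11.39 and 11.33 on SSM, and its CC mean of 11.96 was close to MSM. Rian, which hosts the snoRNAs, differed by −0.70 ± 0.20 (adjusted p 0.193 by limma). The probe sets of the interval's protein-coding ends did not share this direction, with a difference of 0.07 ± 0.14 for Dlk1, a growth regulator made from the paternal copy, and of 0.14 ± 0.13 for Dio3, which inactivates thyroid hormone. Rtl1 differed by −0.32 ± 0.09; it was picked after its values were seen.

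Across the 40 microRNA genes of the interval 35 had the lower mean in SSM, 18 at an unadjusted p under 0.05, and the largest differences after Mir380 and Mir679 were −0.86 ± 0.23 for Mir487b and −0.63 ± 0.18 for Mir341, both named after their values were seen. Of 256 microRNA genes elsewhere in the genome 99 had the lower mean, 16 at that threshold, and 157 the higher mean, 13 at that threshold. Of 52 snoRNA genes 29 had the lower mean, 7 at that threshold, and 23 the higher mean, 3 at that threshold. Over all 19938 genes 5265 had the lower mean, 450 (2.26%) at that threshold, and 14673 (73.6%) the higher mean. The share at that threshold on the lower side was thus above that of all genes in both sets. Without SSM 3 it was reached on the lower side by 31 of the 256, 8 of the 52 and 869 of all genes. One microRNA gene of another chromosome, Mir99a, read 6.03, 5.96 and 5.44 on MSM against 5.09, 5.36 and 5.31 on SSM and was named after its values were seen.

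**Figure D1:**
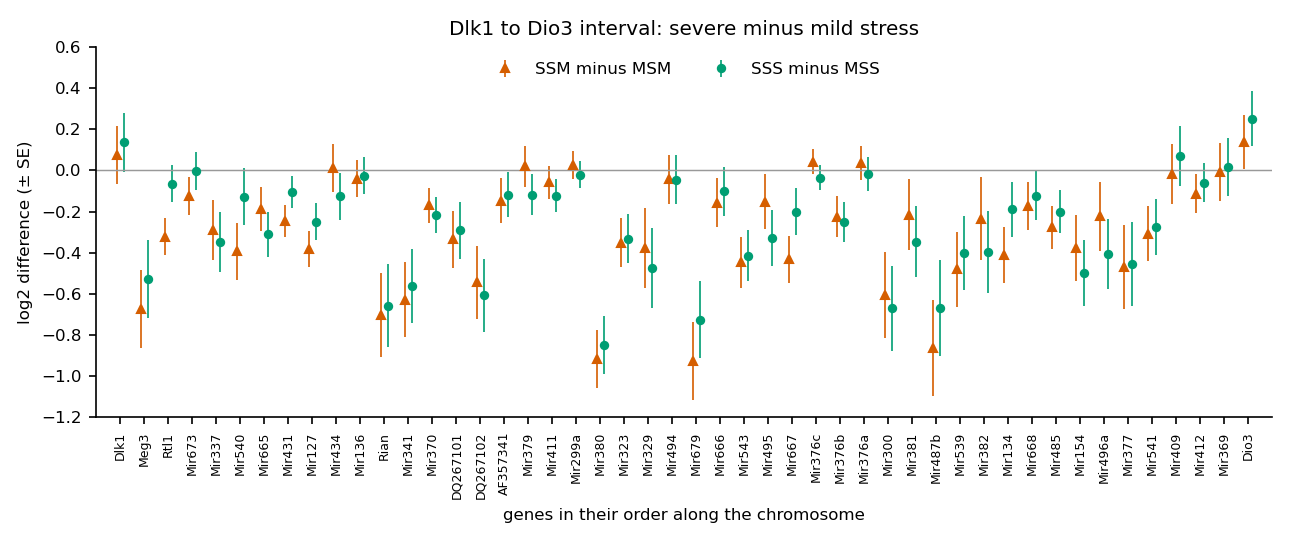
Severe minus mild stress for the 48 genes from Dlk1 to Dio3 in chromosomal order, as log2 difference ± SE, with morphine (triangles) and with saline (circles). Most points lie below 0 in both comparisons, while Dlk1 and Dio3 at the ends lie above it; Mir380 is at −0.92 with morphine and −0.85 with saline.

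Long noncoding RNAs that stay in the nucleus had the lowest median of the 36 gene lists. Of 6 measured, 5 had the lower mean in SSM, as 5265 of all 19938 genes had. At an unadjusted p under 0.05 were 4 of the 6, against 2.26% of all genes. Over all genes the median difference was 0.06, and over the list it was −0.69. That median was −0.69 without SSM 3 and −0.50 without MSM 3 and SSM 1. Snhg11, a host transcript of snoRNAs in neurons, read 8.89, 8.98 and 9.32 on MSM and 8.24, 8.26 and 8.11 on SSM, a difference of −0.86 ± 0.19 (adjusted p 0.156 by limma). Malat1, an abundant RNA of nuclear speckles, read 11.29, 11.26 and 11.38 against 10.70, 10.46 and 10.53, a difference of −0.74 ± 0.24. For both RNAs the highest SSM array lay below the lowest MSM array, as for 4 of the 6 in the list and 2.54% of all genes. The CC arrays read 9.05, 8.53 and 9.06 for Snhg11, between the groups and nearer MSM. The members that lead this list include Meg3 and Rian, already described, so the list and the interval share genes.

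Genes of splicing, the step that removes introns in the nucleus, lay on both sides. Of 51 measured, 20 (39.2%) had the lower mean at an unadjusted p under 0.05, against 2.26% of all genes, and 5 (9.80%) the higher, against 12.1%, with a median difference of −0.08 against 0.06 over all genes. The 20 included splicing kinases and serine-arginine proteins of speckles. Srrm2, a scaffold of speckles, read 10.36, 10.38 and 10.40 on MSM and 10.01, 10.005 and 9.69 on SSM, a difference of −0.47 ± 0.10 (adjusted p 0.156 by limma). Son, the other speckle scaffold, read 9.67, 9.64 and 9.56 against 9.32, 9.35 and 9.34. Akap8, a nuclear anchoring protein that binds splicing factors, read 8.84, 8.87 and 9.06 against 8.58, 8.52 and 8.52. None of these 3 genes overlapped between the groups. Arglu1 differed by −0.37 ± 0.09, and the kinase Clk1, which phosphorylates serine-arginine proteins, by −0.58 ± 0.14; Pnisr, Rsrp1 and Leng8 differed by −0.59, −0.49 and −0.72. Clk1, Pnisr, Rsrp1 and Leng8 were named after their values were seen. The 5 on the higher side, named after their values were seen, were all parts of the core spliceosome: Sf3b5 (0.31), Sf3b6 (0.20), Sf3b4 (0.18), U2af1 (0.16) and Sf3b2 (0.13). Without SSM 3 the splicing counts were 24 lower and 2 higher, against 869 and 1123 of all 19938 genes in that fit. Without MSM 3 and SSM 1 the splicing counts were 16 lower and 3 higher.

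In a list of Mediator subunits and chromatin remodellers 11 of 69 (15.9%, against 2.26% of all genes) had the lower mean at an unadjusted p under 0.05 and 7 (10.1%, against 12.1%) the higher. The 7 were all Mediator subunits, the proteins that link enhancer-bound factors to RNA polymerase, led by Med26 with 6.49, 6.40 and 6.33 on MSM and 6.59, 6.73 and 7.08 on SSM. The 11 were chromatin remodellers, histone methyltransferases, their cofactors and Med12, the large kinase-module subunit. Med12 read 7.40, 7.36 and 7.38 on MSM and 6.80, 7.07 and 7.02 on SSM, a difference of −0.41 ± 0.09. Chd9, a remodelling helicase, differed by −0.27 ± 0.06 and Chd6 by −0.30 ± 0.08. The list's median was 0.01 against 0.06 over all genes. It was −0.03 against 0.03 with quantile normalization and −0.04 against 0.02 with median centring. The sign of the median thus changed with scaling, while it stayed below that of all genes. With quantile normalization 19 members were lower and 6 higher at an unadjusted p under 0.05, against 849 and 1796 of all 19938 genes.

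The genes with the smallest p-values on the lower side, at a mean level of at least 6 and with no overlap between the groups, were Sfi1, Akap8, Med12, Myo19, Srrm2, Snhg11, Chd9, Zkscan2, Paxbp1, Ankrd16, Zfhx2, Eif2s3y, Cdan1, Anks3 and Son. Their differences ranged from −0.27 to −0.86, each with an adjusted p of 0.156 by limma. Sfi1, a centriole protein, read 6.67, 6.42 and 6.46 on MSM and 6.09, 5.98 and 6.02 on SSM. Paxbp1, a transcription factor partner, read 7.91, 7.89 and 8.08 against 7.49, 7.50 and 7.51. Zfhx2, a zinc finger homeobox factor, read 6.56, 6.75 and 6.81 against 6.29, 6.26 and 6.07. The groups did not overlap in any of these genes, as the choice required. Eif2s3y, a translation initiation subunit on the Y chromosome, read 7.99, 7.84 and 8.23 against 7.61, 7.43 and 7.55, and between 7.63 and 8.11 on the 9 arrays of the other groups, so that all 15 arrays expressed it, as their label of male requires. Myo19, a myosin of mitochondria, differed by −0.38 ± 0.08. For 13 of the 15 genes the CC mean lay nearer MSM than SSM, and for all 15 it lay between both groups. The choice of genes with a clear gap between MSM and SSM itself favours a CC mean between them. The position of CC was not counted over all genes, so these counts describe the 15 genes alone.

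On the higher side the same rule named Kbtbd7, Pknox1, Rnpep, Sap30bp, Syt5, Fcrls, Zfp239, Stard3, Chic2, Gstm1, Dbp, Mpped2, Wnt2, Hibch and Nme3, with differences from 0.29 to 0.74 and adjusted p-values from 0.0764 to 0.156 by limma. Kbtbd7, an adaptor of a ubiquitin ligase, read 7.42, 7.41 and 7.34 on MSM and 7.80, 7.70 and 7.71 on SSM, a difference of 0.35 ± 0.05. Pknox1, a homeodomain partner of Pbx proteins, read 6.45, 6.45 and 6.35 against 6.84, 6.85 and 6.91, a difference of 0.45 ± 0.07. In both genes the gap between the groups was wider than the spread within either. The CC arrays read 7.62, 7.67 and 7.71 for Kbtbd7 and 6.61, 6.78 and 6.71 for Pknox1, so the untreated level was nearer the severe than the mild group.

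The other genes of this side include proteins of neurons, glia and the clock. Syt5, a calcium sensor of vesicles, read 9.61, 9.51 and 9.25 on MSM and 10.03, 9.85 and 9.93 on SSM. Wnt2, a secreted growth signal, had the widest difference, 5.80, 5.80 and 5.41 against 6.14, 6.36 and 6.74, or 0.74 ± 0.15; it was 0.58 without SSM 3. Mpped2, a phosphodiesterase, read 7.66, 7.67 and 7.22 against 8.30, 7.99 and 8.02, a difference of 0.58 ± 0.12 that became 0.33 without MSM 3 and SSM 1. Fcrls, a receptor of microglia, read 7.32, 7.33 and 7.36 against 7.73, 7.67 and 7.74. Gstm1, a glutathione transferase of astrocytes, read 8.51, 8.37 and 8.41 against 8.81, 8.77 and 8.73. Dbp, a transcription factor driven directly by the circadian clock, read 8.19, 8.12 and 7.94 against 8.78, 8.46 and 8.41, a difference of 0.46 ± 0.09 with CC at 8.06, 8.16 and 7.98. Dbp was the sole gene of the 15 whose CC mean lay outside the span of both groups, just beyond MSM. For 9 of the 15 the CC mean lay nearer SSM, and for 6 nearer MSM. The limit given for the lower side, from the choice of genes, holds for these counts too.

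**Figure D2:**
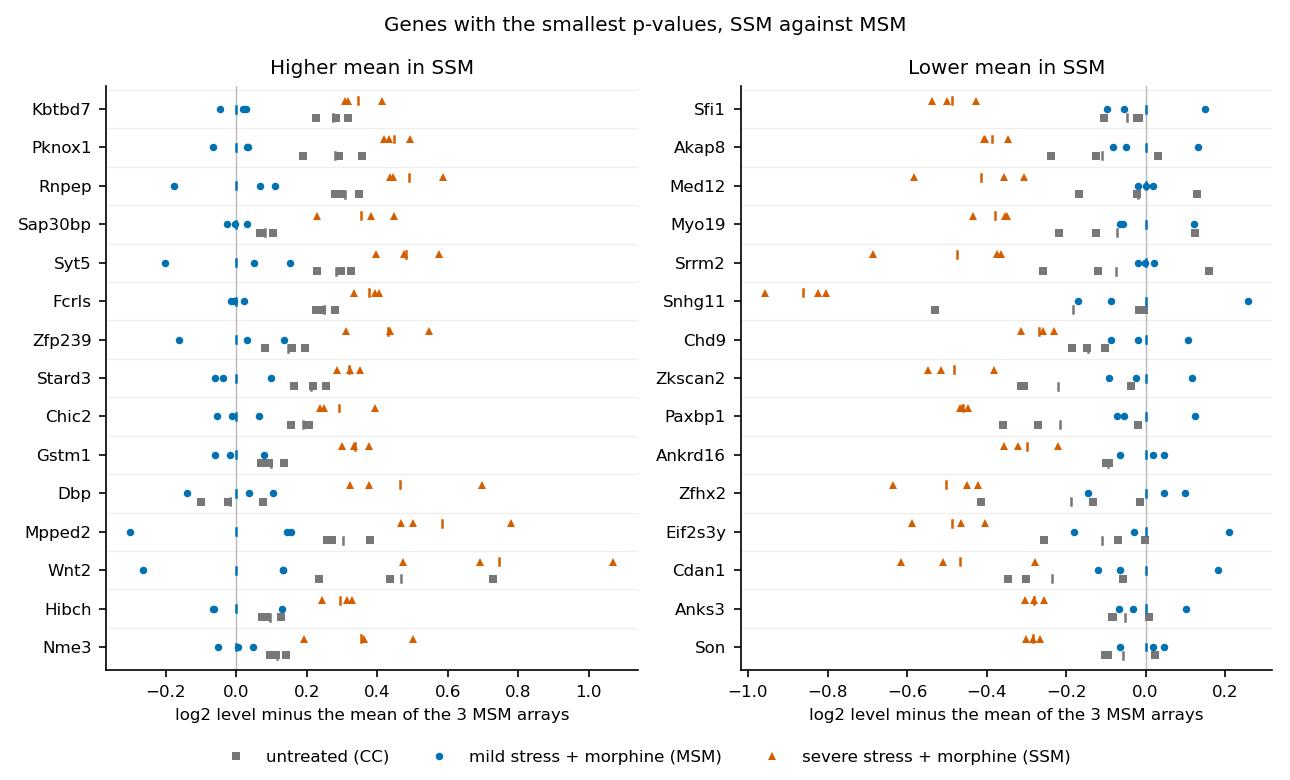
Log2 level on each array minus the mean of the 3 MSM arrays, for the 15 genes with the smallest p-values on each side; squares are untreated (CC), circles MSM and triangles SSM, and short bars are group means. SSM and MSM do not overlap in any gene shown, as the choice of genes required; the CC points of the lower genes sit mostly near the MSM points.

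Genes for mitochondria and protein turnover stood on the higher side as groups, by an amount that depended on the scaling of the arrays. Of 77 mitochondrial ribosomal proteins, which translate the respiratory chain inside mitochondria, 72 had the higher mean in SSM, 32 at an unadjusted p under 0.05 (41.6%, against 12.1% of all genes) and none on the lower side at that threshold. Their median difference was 0.14 against 0.06 over all genes, 0.09 with quantile normalization and 0.09 without SSM 3. In the fit without SSM 3, 20 genes of the list were at that threshold on the higher side, against 5.63% of all genes. The list's mean level was 7.69, 7.64 and 7.63 on the MSM arrays and 7.74, 7.73 and 7.89 on the SSM arrays. SSM 3 was the highest array of the 6 for 61 of the 77 genes, the array whose level was shifted as a whole, and for 12071 of all 19938 genes. Mrps30 read 6.62, 6.22 and 6.45 on MSM and 6.78, 6.81 and 6.90 on SSM, a difference of 0.40 ± 0.08 (adjusted p 0.156 by limma). Mrpl24 read 8.21, 8.21 and 8.28 against 8.58, 8.41 and 8.54, and Mrps27 read 7.10, 7.12 and 7.11 against 7.36, 7.31 and 7.50. The groups did not overlap in any of these 3 genes. Over the list all SSM arrays lay above all MSM arrays for 29 of 77, against 11.6% of all genes.

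Among 72 nuclear-encoded subunits of the respiratory chain and ATP synthase, 69 (95.8%) had the higher mean, against 73.6% of all genes, and 17 (23.6%) did so at an unadjusted p under 0.05, against 12.1%; the median was 0.10. Ndufa1, an accessory subunit of complex I, read 9.03, 9.18 and 9.10 on MSM and 9.32, 9.26 and 9.49 on SSM. Of 39 proteasome subunits 38 had the higher mean and 9 (23.1%) at that threshold, with a median of 0.11. Psmd5, an assembly chaperone of the proteasome, read 7.99, 7.93 and 8.06 against 8.27, 8.09 and 8.46. The 59 cytosolic ribosomal proteins had a median of 0.07, the level of all genes, and 4 passed that threshold. Without SSM 3 the counts were 7 of 72, 2 of 39 and 0 of 59, where 5.63% of all genes were at that threshold on the higher side, with medians of 0.06, 0.07 and 0.05 against 0.01 over all genes. With quantile normalization the counts were 7 of 72, 3 of 39 and 2 of 59, against 1796 of all 19938 genes. The medians were then 0.04, 0.04 and 0.02 against 0.03 over all genes.

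Genes of the response to unfolded proteins and scarce amino acids also mostly had the higher mean: 20 of 22, with 9 (40.9%, against 12.1% of all genes) at an unadjusted p under 0.05, none on the lower side at it, and a median of 0.15. This response raises chaperones of the endoplasmic reticulum and enzymes of amino acid supply. Aldh18a1, which starts proline synthesis, read 8.20, 8.24 and 8.22 on MSM and 8.36, 8.47 and 8.42 on SSM. Phgdh, the first enzyme of serine synthesis, read 7.81, 7.38 and 7.52 against 7.90, 7.89 and 7.81. The chaperone genes Pdia6 and Dnajb9 differed by 0.22 ± 0.07 and 0.28 ± 0.10. Ddit3, Trib3 and Atf3, factors induced by strong activation, were near 0, with 0.01 for Ddit3, −0.02 for Trib3 and 0.03 for Atf3, all named after their values were seen. Without SSM 3 the count was 4 of 22, against 1123 of all 19938 genes, and the median was 0.12 against 0.01 over all genes.

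Because chaperone genes of this list lay on the same side, their promoters were searched on both strands for the endoplasmic reticulum stress response element (CCAAT, 9 bases of any kind, then CCACG). The window ran from 250 bases before to 50 after the RefSeq start site. It held the element in 5 of 21 list genes with a promoter in the table (Pdia6, Hsp90b1, Calr, Creld2 and Hspa5) and in 0.134% of 15614 genes. The list was drawn up as genes of the response that the element is named for. Its frequency there does not depend on the array values and says nothing about the groups. The 5 had differences of 0.22, 0.17, 0.15, 0.19 and 0.14. A second motif, bound by the mitochondrial regulator NRF1 (GCGCA, 1 base of any kind, GCGC), was in 13 of 68 mitochondrial ribosomal promoters (19.1%), 16 of 61 respiratory chain promoters (26.2%) and 9 of 44 splicing promoters (20.5%), against 7.85% of all. It was thus about as frequent in a list on the lower side as in those on the higher side. The bases upstream of the start site are shown for the chaperone with the smallest p, for the one with a pair of matches and for the mitochondrial ribosomal gene with the motif and the smallest p, with matches in capitals (RefSeq, GRCm38.p6).
Pdia6: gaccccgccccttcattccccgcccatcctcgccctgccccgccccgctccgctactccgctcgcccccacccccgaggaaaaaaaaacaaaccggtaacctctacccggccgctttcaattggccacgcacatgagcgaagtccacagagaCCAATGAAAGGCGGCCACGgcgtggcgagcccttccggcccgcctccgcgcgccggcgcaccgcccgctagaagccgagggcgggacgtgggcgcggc
Hsp90b1: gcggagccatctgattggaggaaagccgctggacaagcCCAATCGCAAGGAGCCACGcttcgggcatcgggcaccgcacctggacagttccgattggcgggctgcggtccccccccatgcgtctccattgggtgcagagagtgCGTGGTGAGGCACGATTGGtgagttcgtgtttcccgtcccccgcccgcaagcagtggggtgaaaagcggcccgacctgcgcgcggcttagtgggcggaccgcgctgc
Mrpl17: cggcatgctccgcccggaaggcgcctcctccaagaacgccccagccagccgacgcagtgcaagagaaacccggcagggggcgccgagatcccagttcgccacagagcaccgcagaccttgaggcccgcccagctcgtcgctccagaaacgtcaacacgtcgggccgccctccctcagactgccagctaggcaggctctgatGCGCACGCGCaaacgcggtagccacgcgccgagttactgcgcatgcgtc
They lie at chr12:17266339-17266588 on the plus strand, chr10:86705445-86705694 on the minus strand and chr7:105811088-105811337 on the minus strand. The second match of Hsp90b1 is on the strand opposite the gene. Mrpl17 differed by 0.28 between the groups.

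Among markers of neurons the higher mean in SSM was as frequent as over all genes for interneurons and more frequent for excitatory neurons, and the thalamus-rich array MSM 3 was low in several of those named here. In whole tissue, fewer cells of a type and less RNA per cell cannot be told apart. Of 18 interneuron markers 13 had the higher mean (72.2%, against 73.6% of all genes) and 6 at an unadjusted p under 0.05 (33.3%, against 12.1%). The 5 with the lower mean included the widest difference of the list, −0.95, against 0.52 at most on the higher side, and 0 were at that threshold. Sst, the peptide somatostatin, read 11.005, 10.87 and 10.58 on MSM and 11.23, 11.19 and 11.26 on SSM, a difference of 0.41 ± 0.10 (adjusted p 0.164 by limma). Htr3a, a serotonin-gated channel of interneurons, read 6.14, 6.08 and 5.45 against 6.20, 6.45 and 6.58. Without MSM 3 the differences were 0.29 for Sst and 0.30 for Htr3a. Lhx6, the factor that specifies interneurons from the ganglionic eminence, and Nos1, the neuronal nitric oxide synthase, differed by 0.27 and 0.31 on all arrays and by 0.13 and 0.12 without MSM 3.

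Of 22 markers of excitatory neurons 19 had the higher mean (86.4%, against 73.6% of all genes) and 3 were at that threshold (13.6%), near the share of all genes. Calb1, the calcium buffer calbindin of granule cells, read 8.04, 8.34 and 7.77 on MSM and 8.74, 8.49 and 8.73 on SSM, a difference of 0.61 ± 0.13 (adjusted p 0.156 by limma). It was 0.57 without SSM 3 and 0.43 without MSM 3 and SSM 1, and no SSM array reached down to the MSM arrays. Wfs1, a marker of CA1, and Bcl11b, a transcription factor of granule and CA1 neurons, differed by 0.40 and 0.67. Without MSM 3 and SSM 1 they differed by 0.08 and 0.00. The list's median of 0.24 was −0.05 without MSM 3, and that of the 9 hippocampus-defining genes went from 0.15 to −0.13. That fit keeps SSM 1, which was also low in hippocampus markers. Without MSM 3 and SSM 1 the medians of both lists were 0.07 and 0.03. Of 21 ionotropic receptor and chloride transporter genes 2 were at an unadjusted p under 0.05, Gabra4 (0.27) and Gria3 (0.23); that share of 9.52% is below the 12.1% of all genes.

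Microglia markers had the higher mean for 15 of 16 genes (93.8%, against 73.6% of all genes), with 5 at an unadjusted p under 0.05 (31.3%, against 12.1%) and a median of 0.18 against 0.06. Fcer1g, an adaptor of immune receptors, read 7.07, 7.04 and 7.05 on MSM and 7.43, 7.23 and 7.43 on SSM. C1qb, a chain of complement C1q, read 7.12, 6.87 and 7.05 against 7.59, 7.24 and 7.24. Tyrobp and Aif1 differed by 0.21 ± 0.07 and 0.24 ± 0.08, and the groups did not overlap in any of these 4 genes. Over the list all SSM arrays lay above all MSM arrays for 6 of 16 genes, against 11.6% of all genes. SSM 1, the striatum-rich array, was the highest of the 6 arrays for 13 of the 16 markers, and without it the median was 0.07, below the 0.09 of all genes. The homeostatic markers P2ry12, Cx3cr1 and Csf1r, named after their values were seen, differed by 0.01, 0.07 and 0.05. Cytokine and interferon genes had a median of 0.04, −0.01 with median centring, and 1 of 17 at an unadjusted p under 0.05, Cxcl10 at 0.15.

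The lists of striatum, thalamus, myelin and meninges moved with single arrays. The striatum list had a median of 0.42, the highest of all lists, with SSM 1 highest in 14 of 15 genes. Without SSM 1 its median was −0.23, in a fit that keeps MSM 2, where the list's mean was 7.20 against 6.44 and 6.79 on the other MSM arrays. Thalamus genes had a median of −0.27, with MSM 3 highest in 15 of 17; without MSM 3 the median was 0.04. Myelin genes had means of 6.28, 6.57 and 7.14 on the MSM arrays and 7.23, 6.13 and 6.20 on the SSM arrays. Their median was −0.14, 0.09 without MSM 3 and −0.50 without SSM 1. In the fit without SSM 1, 8 of 17 had the lower mean at an unadjusted p under 0.05, against 340 of all 19938 genes. Mbp, the myelin basic protein, read 7.99, 8.48 and 9.24 against 9.40, 7.67 and 7.81, so that the groups overlapped fully. Choroid plexus, marked by Ttr at 13.18, 12.88 and 13.24 on MSM and 13.24, 12.71 and 13.07 on SSM, was present on all 6 arrays. Oligodendrocyte precursor genes had a median of −0.10, with MSM 3 highest in 12 of 15 and a median of 0.03 without it, and 1 at that threshold, Pcdh15; astrocyte genes had 0 of 16, and vessel genes 0 of 15, at an unadjusted limma p under 0.05, and none passed after adjustment. Meninges genes had a median of 0.09, 0.31 without SSM 1 and −0.12 without SSM 3. No haemoglobin gene was among the 6 red cell genes measured.

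**Figure D3:**
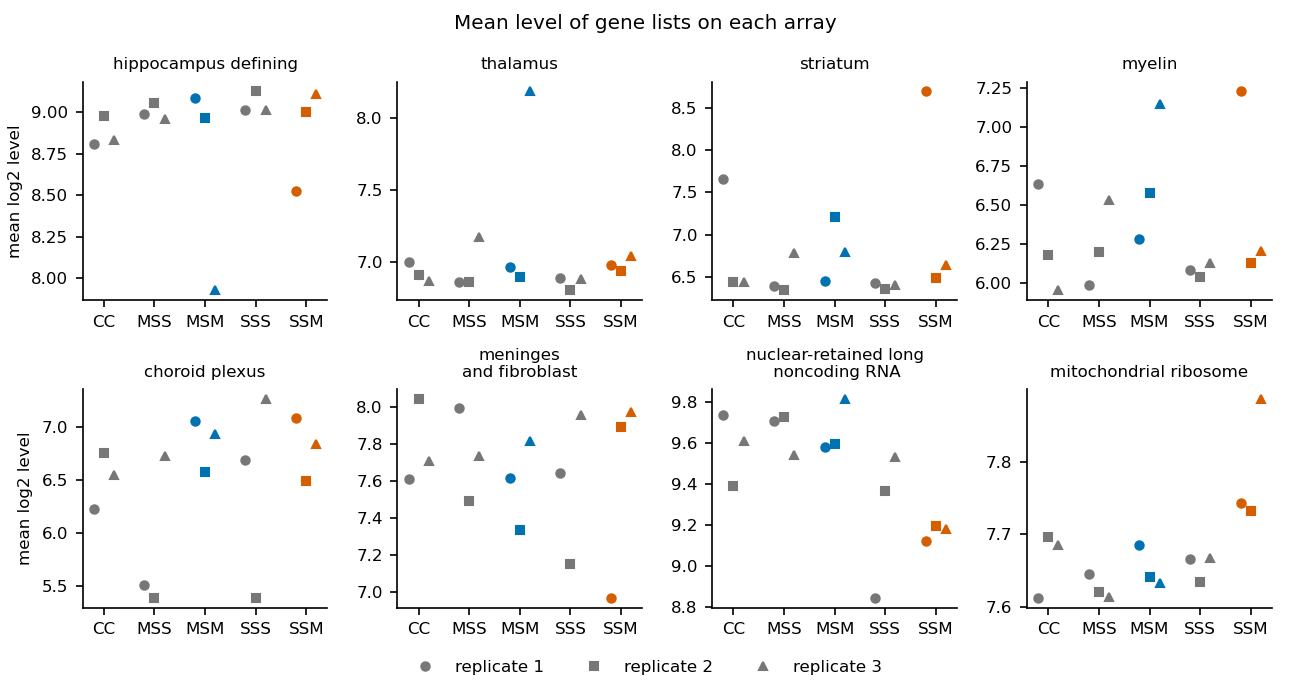
Mean log2 level of 8 gene lists on each of the 15 arrays, by group, with MSM in blue, SSM in orange and the symbol giving the replicate. MSM 3 stands apart for thalamus and hippocampus genes. Striatum genes are highest on SSM 1, and CC 1 and MSM 2 also stand above the remaining arrays. Nuclear-retained RNAs are lower on all 3 SSM arrays than on all 3 MSM arrays, and SSS 1 is lower still.

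The lists closest to the treatment itself showed few members past the unadjusted threshold. Of 21 genes induced by corticosterone 1 had an unadjusted limma p under 0.05, against 12.1% of all genes on the higher side, and the median was 0.04, with −0.01 after median centring. That gene was Mt1, a metallothionein, at 10.12, 9.97 and 9.84 on MSM and 10.30, 10.16 and 10.26 on SSM. Fkbp5 and Sgk1, textbook targets of the receptor and named after their values were seen, differed by 0.08 and −0.03. Of 15 stress hormone receptors and their partners 13 had the higher mean (86.7%, against 73.6% of all genes) and 1 (6.67%, against 12.1%) was at that threshold, Fkbp4, a co-chaperone of the receptor, at 0.16. The vasopressin receptor gene Avpr1a read 7.50, 7.14 and 6.06 on MSM and 7.06, 7.64 and 7.54 on SSM, with MSM 3 the lowest array.

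Opioid genes, the system morphine acts on, had 2 of 19 (10.5%) higher and 1 (5.26%) lower at an unadjusted p under 0.05, near the 12.1% and 2.26% of all genes. Npff, a peptide that opposes opioid action, read 5.64, 5.84 and 5.50 on MSM and 5.31, 5.18 and 5.28 on SSM, a difference of −0.40 ± 0.09 (adjusted p 0.156 by limma). Its CC mean was 5.27, at the level of SSM, so that the mild group stood above both. The MSM and SSM readings of Npff lay below the median level of every array. Rgs4, which shortens signalling of opioid-coupled G proteins, read 9.53, 9.67 and 9.25 against 10.18, 9.60 and 9.79, a difference of 0.37 ± 0.12 that was 0.10 without MSM 3 and SSM 1. Oprm1, the receptor morphine binds, read 4.83, 4.88 and 4.89 against 5.07, 4.90 and 5.08, a difference of 0.15 ± 0.07 at a low level on the array. Penk, the enkephalin precursor, was highest on the striatum-rich array, as given above.

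Genes induced by neuronal firing had a median of 0.14 against 0.06 over all genes, with 2 of 20 (10%) at an unadjusted p under 0.05, below the 12.1% of all genes. Egr3 read 7.16, 7.32 and 6.66 on MSM and 7.51, 7.30 and 7.33 on SSM, and Egr2 differed by 0.16 ± 0.07. The groups overlapped for Egr3, MSM 3 was the lowest array, and without it the list's median was 0.00 and no member passed. Of 18 clock genes Dbp was past that threshold on the higher side and Rorb on the lower. Rorb, a nuclear receptor of sensory neurons as well as the clock, read 6.69, 7.62 and 7.71 on MSM and 6.79 on each SSM array, a difference of −0.55 ± 0.19. With MSM 1 left out it was −0.88 and its adjusted p 0.0275 by limma, the sole gene past the threshold there. Hypoxia and glucose supply genes had 6 of 21 (28.6%, against 12.1% of all genes) on the higher side, among them P4ha1 (0.22) and Pdk1 (0.26), and 1 on the lower. That was Vegfa, the growth factor of vessels, at 7.96, 8.09 and 7.81 against 7.60, 7.64 and 7.72, a difference of −0.30 ± 0.08. Without SSM 3 the hypoxia count was 1 higher and 1 lower, against 1123 and 869 of all 19938 genes.

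Synapse genes went both ways, with 4 of 22 (18.2%) higher and 2 (9.09%) lower at an unadjusted p under 0.05, against 12.1% and 2.26% of all genes, and a median of 0.00. Beside Syt5, Syp, the vesicle protein synaptophysin, was higher at 0.14 ± 0.05. Pclo and Rims1, scaffolds of the active zone encoded by long genes, were on the lower side. Pclo read 8.69, 8.73 and 8.62 on MSM and 8.11, 8.36 and 8.27 on SSM, a difference of −0.43 ± 0.11, with a CC mean of 8.35. Rims1 read 9.13, 9.15 and 9.33 against 8.82, 9.00 and 8.99. Both groups were apart in both genes, as in 2.54% of all genes in that direction, and the CC means lay nearer SSM than MSM. Motor proteins had 7 of 86 higher and 7 lower (8.14% each, against 12.1% and 2.26% of all genes). Dync1h1, the heavy chain of cytoplasmic dynein, read 10.30, 10.24 and 10.20 against 9.76, 10.04 and 9.76, whereas the light chains Dynlt3, Dynlrb1 and Dynll1, named after their values were seen, differed by 0.25, 0.19 and 0.19.

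Of 44 collagen chains 37 had the lower mean, where 73.6% of all genes had the higher mean. At an unadjusted p under 0.05, 2 were lower (4.55%, against 2.26% of all genes), Col11a1 at −0.28 and Col11a2 at −0.23. The median of −0.11 was 0.00 without MSM 3 and SSM 1. It was −0.17 without SSM 3, where 8 chains and 869 of all 19938 genes were lower at that threshold. With median centring it was −0.15, with 7 chains and 982 of all genes. Cholesterol synthesis genes had the higher mean for 15 of 16 and 4 (25%) past that threshold. They were led by Dhcr7, the last enzyme of the pathway, at 0.24 ± 0.08. Without SSM 3 the cholesterol count was 1 of 16, against 1123 of all 19938 genes. Of 15 heat shock genes 2 passed, Chordc1 (0.28) and Dnajb1 (0.19). Of 21 cell cycle genes 2 passed, among them Mcm2, a subunit of the replication helicase, at 6.89, 6.75 and 6.81 against 7.13, 6.98 and 7.25. Of 19 progenitor and immature neuron genes 2 passed, the stem cell filament Nes (0.33) and Draxin (0.34), an axon guidance cue. Apart from the collagens, all were on the higher side, where 12.1% of all genes passed.

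**Figure D4:**
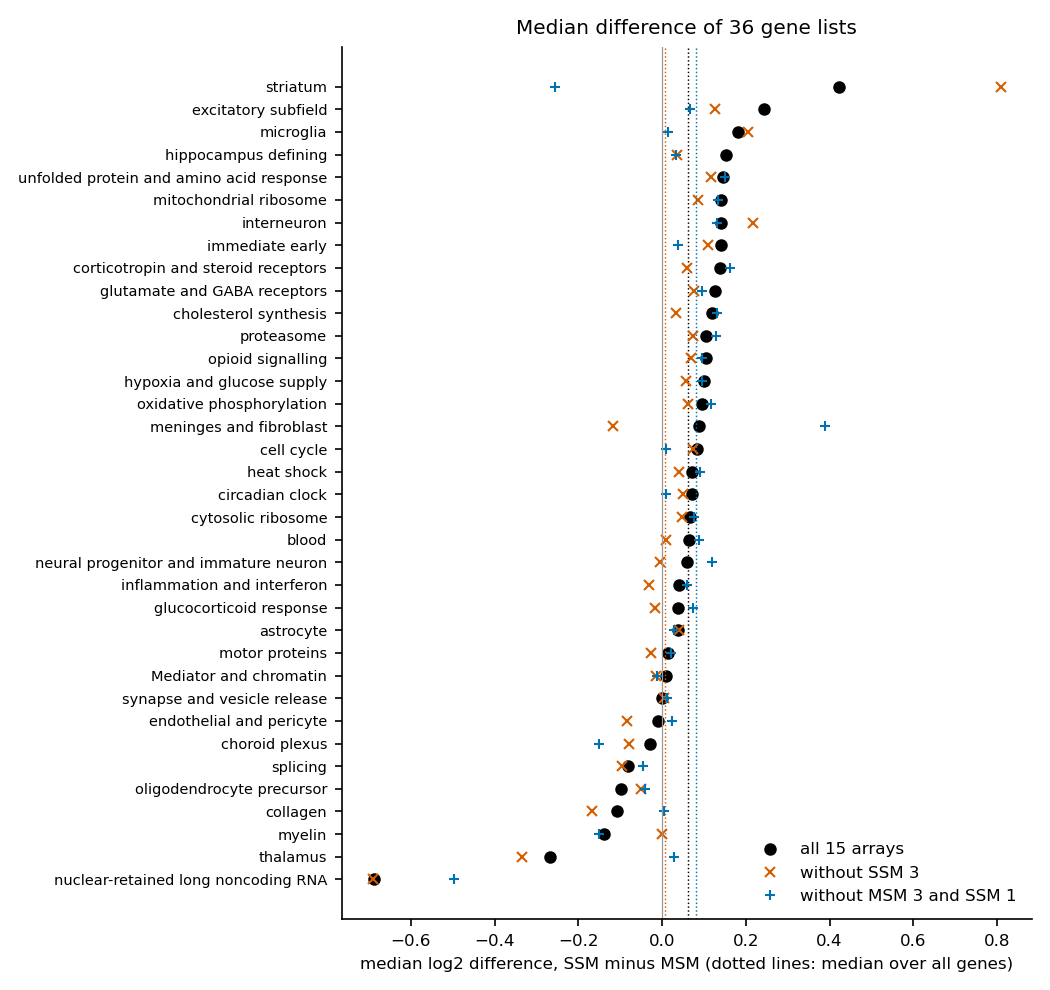
Median log2 difference, SSM minus MSM, of each of 36 gene lists with all 15 arrays (filled circles), without SSM 3 (crosses) and without MSM 3 and SSM 1 (plus signs); dotted lines are the medians over all genes in the same fits. Nuclear-retained RNAs stay lowest in all 3 fits, whereas striatum and thalamus move from 0.42 and −0.27 to the other side of 0 without MSM 3 and SSM 1.

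By gene length, in 5 equal classes of the RefSeq genomic span, the share of genes with the lower mean at an unadjusted p under 0.05 was 1.93%, 1.51%, 1.86%, 2.26% and 3.67% from the shortest to the longest class. With quantile normalization the longest class had 7.71% and the shortest 3.16%. Without SSM 3 it was 4.34% against 5.12%, so the longest class did not stand out without that array.

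The same step of severity was available with saline, SSS against MSS, which shares no array with SSM and MSM. The SS number in the titles was again 11 on all mild stress arrays and 8 or 10 on the severe ones, with SSS 3 and SSM 1 sharing the number 8. What it marks therefore cannot be told apart from severity here either, and genes shared by both comparisons are given with that limit. There no gene passed the adjusted threshold (smallest adjusted p 0.527 by limma), 255 genes (1.28%) had the higher and 313 (1.57%) the lower mean at an unadjusted p under 0.05. Of the 450 genes on the lower side with morphine, 382 (84.9%) were lower with saline as well, against 45.6% of all genes, and 119 of them (26.4%) were at an unadjusted p under 0.05 there. Of the 2408 on the higher side, 1719 (71.4%) were higher with saline, against 54.4% of all genes, and 102 (4.24%) reached that threshold.

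In the Dlk1 to Dio3 interval 38 of 40 microRNA genes had the lower mean with saline, 18 at an unadjusted p under 0.05. Small RNAs outside the interval were also mostly lower with saline. Of 256 microRNA genes elsewhere 182 had the lower mean, 16 at that threshold. Of 52 snoRNA genes 40 did, 8 at that threshold. Over all genes 45.6% had the lower mean and 1.57% were at that threshold on the lower side. Mir380 differed by −0.85 ± 0.14 with saline, reading 5.64, 5.78 and 5.32 on MSS and 4.49, 4.84 and 4.86 on SSS. Malat1, Rian and Clk1 differed by −0.66, −0.66 and −0.61 with saline. The SSS arrays were not even in this: SSS 1 had the lowest mean of nuclear-retained RNAs of all 15 arrays, 8.84, against 9.37 and 9.53 on the other SSS arrays. With morphine the 3 SSM arrays lay close together, at 9.12, 9.19 and 9.18. Of the 15 named genes on the lower side 14 were lower with saline and 10 had no overlap there, as 4.43% of all genes had in that direction. On the higher side 13 of 15 were higher with saline, with a median of 0.08 against 0.38 with morphine, and 3 had no overlap, against 6.49% of all genes. Kbtbd7 differed by 0.17 ± 0.05 and Dbp by 0.25 ± 0.09 with saline, whereas Pknox1 differed by 0.01 ± 0.07, Wnt2 by 0.04 ± 0.15 and Fcrls by −0.11 ± 0.07.

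The mitochondrial ribosome list had a median of 0.02 with saline, the microglia list −0.03, the interneuron list −0.03 and the splicing list −0.10. Whether the difference with morphine departed from that with saline was tested directly, as the difference of both contrasts. No gene passed (smallest adjusted p 0.959 by limma), and 727 genes (3.65%) had an unadjusted p under 0.05. A difference between morphine and saline in the size of the severity step was therefore not shown for any single gene.

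**Figure D5:**
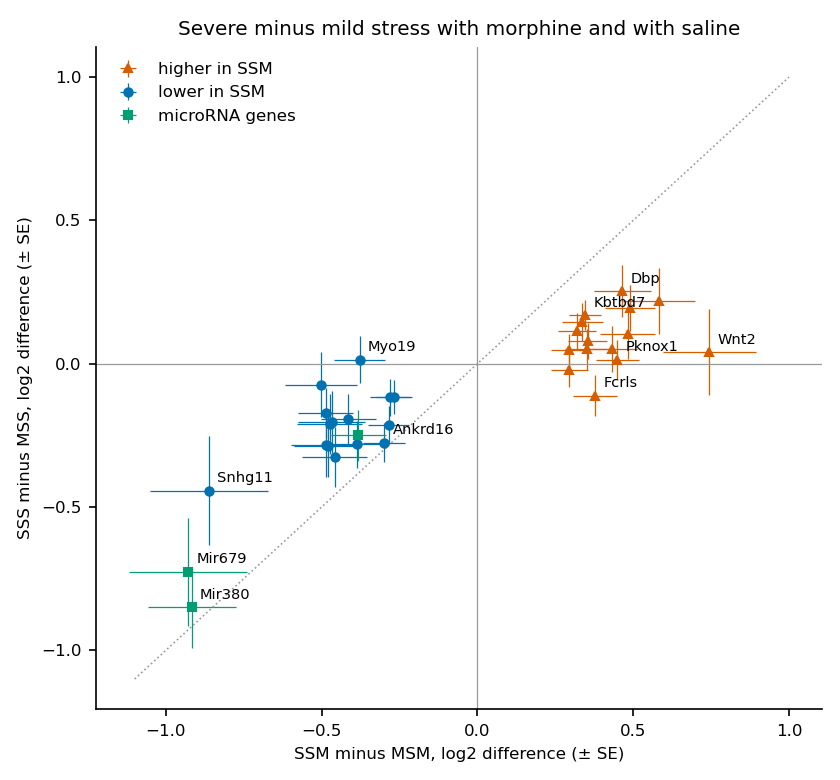
Severe minus mild stress with saline (vertical) against the same with morphine (horizontal), as log2 differences ± SE, for the 15 named genes on each side and 3 microRNA genes; the dotted line marks equal differences. Genes were chosen on the horizontal axis; Mir380 and Mir679 lie near the dotted line, and Pknox1, Wnt2 and Fcrls lie near or below 0 on the vertical axis.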

How the data were processed

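RNA of the right hippocampus was measured on Affymetrix Mouse Gene 1.0 ST arrays, 3 for each of 5 groups. The deposited values are log2 intensities that the authors made with RMA, per the submitters' processing notes; the sources used here name no software or version for it. Probe sets with exactly 1 symbol were kept (21789 of 35557), and of several for a gene the one with the highest mean over the 15 arrays, which left 19938 genes; no filter on low values was used. Groups came from the labels, and replicates were numbered in accession order. One mean per group was fitted to all 15 arrays in limma 3.58.1 (R 4.3.3), and SSM minus MSM, SSS minus MSS and their difference were tested with Benjamini-Hochberg adjustment over all genes. The fit was tested on simulated data.

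Genes named are the 15 per direction with the smallest p, a mean of at least 6 and no overlap between groups (predicted genes, small RNAs and receptors of smell or taste passed over), up to 4 per list by p, 3 small RNAs by p, and markers that check tissue and sex; any other gene was named after its values were seen. The 36 lists and the comparison were chosen with earlier results of these data known. The alternatives were quantile normalization, median centring, a mean level of at least 6, the mean of all probe sets, array weights, a trended and robust prior, blocks on the titles' SS and H numbers, the SSM and MSM arrays alone, and arrays left out.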

Additional observations from a re-analysis of the deposited data

Results flagged for a closer look

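Oprm1, the receptor that morphine binds, differed by 0.15 between severe and mild stress with morphine, and every SSM array lay above every MSM array while every SSS array (4.78, 4.85 and 4.77) lay below every MSS array (4.96, 4.90 and 4.87). Mrpl17, a protein of the large mitochondrial ribosomal subunit, differed by 0.28 with morphine and likewise went the opposite way with saline on every array. Both were picked out by the opposite directions alone. The difference between the contrasts passed for neither gene after adjustment over all genes by limma, where the smallest adjusted p of any gene was 0.959.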

How the results depend on the processing

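Of 26 alternatives, each changed 1 choice except SSM 3 left out with quantile normalization and the one without both MSM 3 and SSM 1, and 24 left no gene past the adjusted threshold for SSM against MSM. At an unadjusted p under 0.05, the higher side held 991 genes with the SSM and MSM arrays alone, 1268 with median centring, 1236 with array weights and 1378 with SSM 3 left out and quantile normalization; leaving out 1 array at a time gave 1123 to 3488. The lower side held 849 with quantile normalization, 982 with median centring, 756 with array weights and 340 to 869 with 1 array left out. The count past the adjusted threshold was 0 to 8 with 1 array left out, with 1 gene without MSM 1 and 8 without SSS 1. With saline, the higher side held 596 (quantile), 764 (array weights), 629 (SSM 3 left out with quantile normalization), 400 (without MSM 3 and SSM 1) and 185 to 412 with 1 array left out. The lower side held 190 at a mean level of at least 6, 711 with array weights and 168 to 443 with 1 array left out, and 1 gene (Mir99a) passed without MSM 3 and SSM 1. The difference of both contrasts held 455 at a mean level of at least 6 and 495 to 1542 with 1 array left out. The causes of these shifts were not tested, beyond the fewer genes or arrays that some settings use.

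Of 936 list medians under the alternatives, 900 moved by less than the spread of the list's mean between arrays of a group. A list that follows 1 array has a wide spread, so this count does not measure stability. The change of the striatum median from 0.42 to −0.23 without SSM 1 lay within that spread. So did the change of the thalamus median from −0.27 to 0.04 without MSM 3. Of 3185 values for 123 genes named, 36 changed sign, in 12 genes. Many of these values could not change. Leaving out a CC, MSS or SSS array, or fitting the SSM and MSM arrays alone, keeps each difference as it was. So do the level filter and the trended and robust prior. Apart from the level filter, the same holds for the list medians. With quantile normalization the difference was −0.0097 for Csf1r. With median centring the difference was −0.033 for Ddit3, −0.016 for Atf3 and −0.037 for P2ry12. With array weights the difference was −0.088 for Penk, −0.15 for Atf3, −0.042 for P2ry12, −0.043 for Cx3cr1 and −0.043 for Csf1r. Without MSM 3 and SSM 1 the difference was −0.93 for Penk, −0.30 for Drd1, −0.033 for P2ry12, −0.077 for Cx3cr1 and −0.065 for Csf1r. With SSM 3 left out and quantile normalization the difference was 0.064 for Trib3 and −0.063 for Atf3. With 1 array left out the differences that crossed 0 ranged from −0.90 to 1.12 for Penk, from −0.085 to 0.078 for Ddit3, from −0.030 to 0.063 for P2ry12, from −0.037 to 0.17 for Dlk1, from −0.052 to 0.016 for Trib3 and from −0.14 to 0.14 for Atf3. They also ranged from −0.83 to 0.059 for Mbp, from −0.092 to 0.020 for Sgk1, from −0.27 to 1.33 for Drd1, from −0.079 to 0.18 for Cx3cr1, from −0.050 to 0.13 for Csf1r and from −0.21 to 0.053 for Ttr.

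The titles' H number was tried as a replicate block: 2301 genes were higher and 420 lower at an unadjusted p under 0.05, and 0 passed. Deviations of arrays sharing a number correlated at −0.30 and −0.20, so the numbers were not taken to pair the arrays. The number of arrays, 3 per group, limits the precision.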
